A study of Mus musculus with 7 samples.

Results

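The translation initiation factor genes examined here were the protein-coding genes on mouse chromosomes 1 to 19 whose symbol starts with Eif followed by a digit, as annotated in GENCODE M21. The rule found 52 of 20807 protein-coding genes and used no measured value. Muscle stem cells (MuSCs), the resident stem cells of skeletal muscle, were profiled in 7 libraries. CUT&Tag, which maps a protein by antibody-guided tagmentation of the chromatin around it, gave 2 libraries for TRF2, the telomere-binding protein encoded by Terf2, and 1 library with a nonspecific IgG. These came from MuSCs of mice carrying a Pax7-driven Cre and a TdTomato reporter, sorted from injured muscle and labelled 3 days after the muscle toxin notexin, although the study's methods state a shorter time, which leaves the time uncertain. ATAC-seq, which maps accessible DNA by its tagmentation, was run on 2 samples each of Control and TRF2KO from uninjured hindlimb MuSCs, labelled 0 h. In the TRF2KO mice Terf2 was deleted through a tamoxifen-inducible Cre expressed from Pax7, which restricts deletion to the MuSC lineage. For TRF2KO the genotype label says Wildtype while the title says otherwise, and the titles were used; the study calls the ATAC Control cells wild type without listing their alleles. The CUT&Tag and ATAC cells therefore differed in injury state. The TRF2KO cells also differed from the CUT&Tag cells in mouse line, which cannot be told for Control.

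Translation initiation places a ribosome at the start codon of an mRNA. eIF2, bound to GTP, carries the initiator tRNA to the small ribosomal subunit, eIF2B recharges eIF2 with GTP, and kinases that phosphorylate the alpha subunit of eIF2 block that recharging under stress. The eIF4 proteins recognise the mRNA cap and unwind the leader, eIF3 bridges the mRNA and the small subunit, and eIF5 and eIF5B act when the subunits join. Quiescent MuSCs are known to hold translation low, in part through phosphorylation of eIF2 alpha, and to raise it on activation. The data describe chromatin at the promoters of these genes and not their RNA or protein.

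The promoters of 6 genes carried the highest mean TRF2 fold among those with a peak in both libraries, and the DNA at the TRF2 summit is given because TRF2 is known for binding the telomeric TTAGGG repeat and G-rich sequence. Each sequence is from GRCm38, whose coordinates mm10 shares, and is written 5′ to 3′ on the strand of the gene. Each spans 50 bases either side of the summit of the stronger library, moved upstream for Eif5 so that it ends at the base before the gene start. Capitals mark a G4 pattern (4 runs of 3 or more G, separated by 1 to 7 bases, or the same with C for the other strand) or a copy of GGGCGG (the GC box), CCAAT (the CCAAT box), CCGGAAG (an ETS site), CACGTG (the E-box), TGACGTCA (the CRE), AAGATGGCG or GCGCATGCG, on either strand. A GGGCGG copy can lie within a G4 pattern, and overlapping marks merge.
Eif3j1, chr2:122028426-122028526, plus strand: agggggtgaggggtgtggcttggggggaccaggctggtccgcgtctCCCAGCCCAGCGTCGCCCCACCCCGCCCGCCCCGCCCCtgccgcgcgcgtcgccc
Eif2ak4, chr2:118388509-118388609, plus strand: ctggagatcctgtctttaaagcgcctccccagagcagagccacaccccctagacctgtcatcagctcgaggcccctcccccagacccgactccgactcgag
Eif4ebp2, chr10:61452924-61453024, minus strand: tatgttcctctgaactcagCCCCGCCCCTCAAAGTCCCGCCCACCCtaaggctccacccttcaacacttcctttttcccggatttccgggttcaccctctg
Eif5, chr12:111537915-111538015, plus strand: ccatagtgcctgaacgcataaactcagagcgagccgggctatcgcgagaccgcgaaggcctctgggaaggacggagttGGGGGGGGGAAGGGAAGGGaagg
Eif4g2, chr7:111083079-111083179, minus strand: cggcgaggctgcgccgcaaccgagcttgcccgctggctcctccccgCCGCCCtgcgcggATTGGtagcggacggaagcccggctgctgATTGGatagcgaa
Eif4a1, chr11:69672442-69672542, minus strand: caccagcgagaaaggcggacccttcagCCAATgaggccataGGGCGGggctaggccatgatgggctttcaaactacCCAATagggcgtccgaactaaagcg

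A G4 pattern lay in the printed windows of Eif3j1, Eif4ebp2 and Eif5, and none in those of Eif2ak4, Eif4g2 and Eif4a1. These windows were placed by the summit of the stronger library. The replicate 1 summit of Eif4g2, at 90 bp, and the replicate 2 summit of Eif5, at 15 bp, lay outside their windows. Within 250 bp of the gene start Eif4g2 did hold a G4 pattern, while Eif2ak4 and Eif4a1 did not. None of the letters searched were in the Eif2ak4 window, the promoter with the highest single TRF2 value of the family. GC content ranged from 57.4% (Eif4ebp2) to 81.2% (Eif3j1). All 6 windows lay upstream of the gene start, and the annotation placed no exon in them except for Eif4g2, where the whole window fell in an exon of the noncoding gene 1700012D14Rik on the same strand.

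The lists held between 84102 and 100521 peaks for ATAC, 12290 and 15479 peaks for TRF2 replicates 1 and 2, and 656 for IgG. A library's value for a gene was the fold enrichment of its strongest MACS peak within 1 kb of the gene start, in which 1 is added to the fragments at the summit and to those of the background before division. Control replicate 2 had the most peaks and the highest background, so folds were centred on each library's median before genotypes were compared. Terf2 itself checked the labels, with ATAC folds of 54.3 and 48.4 in Control and of 21.5 and 18.6 in TRF2KO. Its centred log2 difference was -1.46 (SE 0.11, limma adjusted p = 3.0e-05). All 9 MuSC markers examined (among them Pax7, Myf5 and Calcr) had an ATAC peak in all 4 libraries, against 9 of 16 markers of endothelial, blood, fibro-adipogenic, smooth muscle, Schwann and myofibre cells. Among those 16, the markers without a peak in every library included Ptprc, Cdh5, Ly6a and Acta1, and Acta2, a smooth muscle actin, passed the test as lower in TRF2KO.

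An ATAC peak lay within 1 kb of the gene start in all 4 libraries at 49 of the 52 initiation factor genes, against 61.9% of all protein-coding genes. The 49 promoters ranked high, with a median rank percentile of 94.4 among the peaks of a library, averaged over the 4 libraries, against 89.0 for all 12888 promoters with such a peak. Median folds over the 49 were 76.4 and 62.6 in Control and 80.0 and 74.7 in TRF2KO, against 48.8, 43.4, 51.7 and 47.2 over all 12888. The summits lay close to the annotated start, at a median distance of 69 bp in Control replicate 1, against 102 bp over all promoters with a peak. Pileups behind these values were whole fragment numbers, from 45 at Eif3j2 in Control replicate 2 to 886 at Eif4g2 in the same library.

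**Figure D1:**
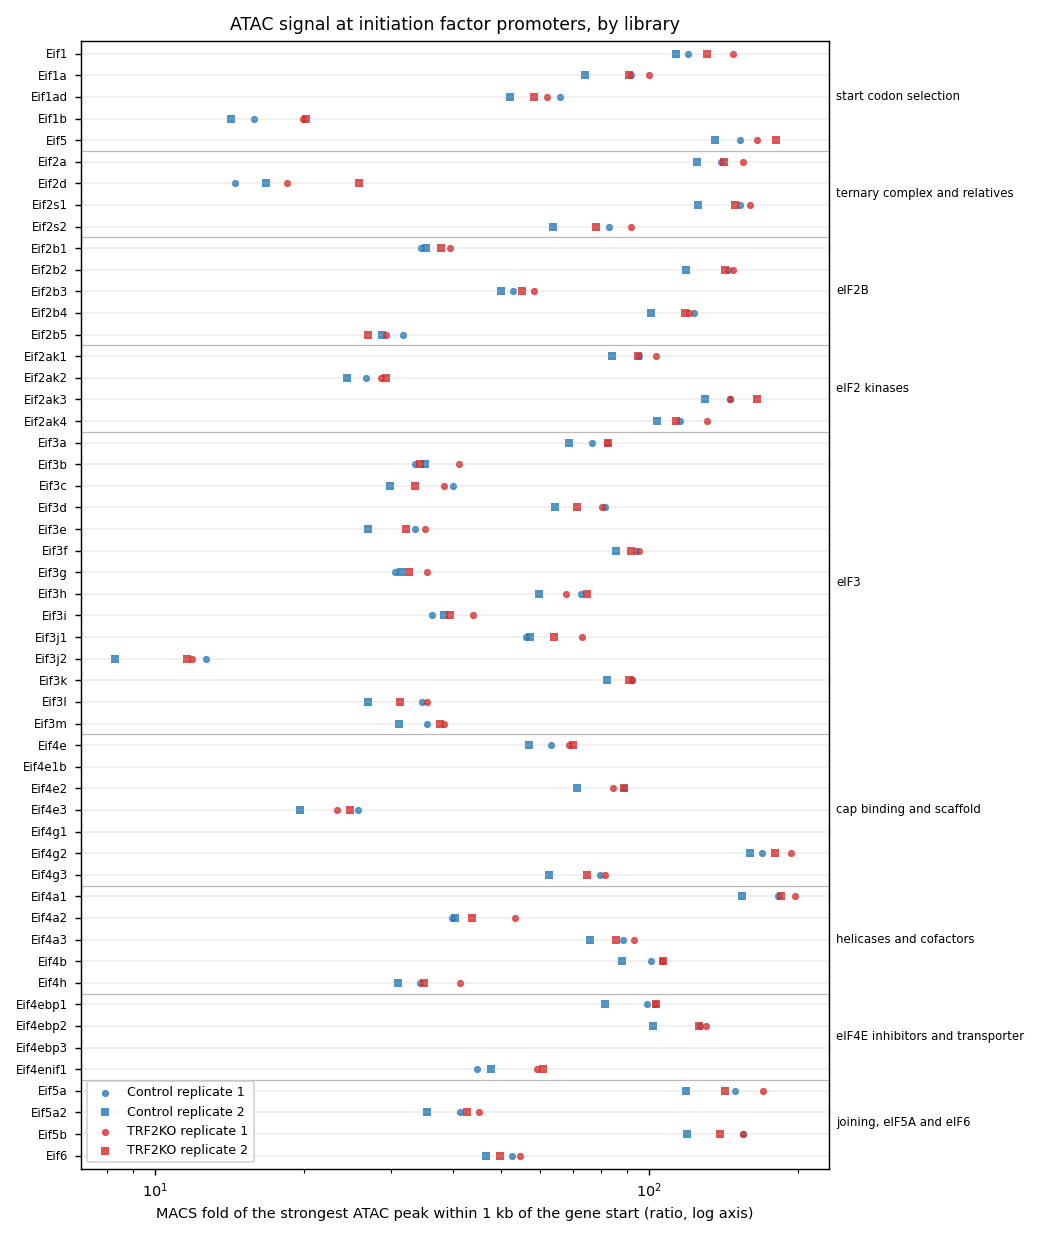
ATAC fold enrichment (ratio, log axis) of the strongest peak within 1 kb of the gene start for each initiation factor gene, by role. Each point is 1 library, with Control in blue, TRF2KO in red, circles for replicate 1 and squares for replicate 2, and the genes Eif4e1b, Eif4g1 and Eif4ebp3 have no point. Values run from 8.28 at Eif3j2 to 197 at Eif4a1, and the spread between libraries of a gene is small beside the spread between genes.

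The strongest ATAC promoters belonged to factors of several steps. Eif4a1, the main RNA helicase of the cap-binding complex (chr11:69666936-69672423), had folds of 182 and 154 in Control and 197 and 184 in TRF2KO. Eif4g2, a relative of the scaffold eIF4G that lacks the cap-binding protein's site (chr7:111067750-111083030), had 169, 160, 194 and 180 in the same order. Their mean rank percentiles of 99.8 and 99.7 were the highest of the family. Eif5, which stimulates GTP hydrolysis by eIF2 (chr12:111538016-111546752), had 153 and 136 in Control and 165 and 180 in TRF2KO.

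Within eIF2 and its regulators the levels spread widely. Eif2s1, the alpha subunit that the stress kinases phosphorylate (chr12:78861819-78887010), had folds of 153 and 126 in Control and 160 and 149 in TRF2KO. The kinase gene Eif2ak3 (PERK, which responds to stress of the endoplasmic reticulum, chr6:70844515-70905245) had 145 and 130 in Control and 145 and 165 in TRF2KO. The kinase gene Eif2ak4 (GCN2, which responds to lack of amino acids, chr2:118388618-118475234) had 115 and 104 in Control and 131 and 113 in TRF2KO. Eif2ak2 (PKR, which responds to double-stranded RNA) was far lower, at 26.7 and 24.5 in Control and 28.6 and 29.3 in TRF2KO. The 5 eIF2B subunit genes ran from a mean rank percentile of 81.9 (Eif2b5) to 98.9 (Eif2b2).

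The 14 eIF3 genes had the lowest median rank of all roles, at 85.8, and ranged between 60.5 and 96.3. Eif3f, a core eIF3 subunit (chr7:108934417-108942951), had the highest rank of them, with 93.9 and 85.7 in Control and 95.4 and 91.7 in TRF2KO. Eif3j2 closed the list with 12.7 and 8.28 in Control and 11.9 and 11.6 in TRF2KO. Its relative Eif3j1 had 56.4, 57.2, 73.0 and 64.0 in the same order. The libraries of Eif3j1 and Eif3j2 did not overlap. Any reads that could map to both copies were removed by the authors' filter on unique alignment. The sequences of both copies were not compared, so the extent of this is unknown and both values are uncertain.

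Eif4e, the cap-binding protein (chr3:138526179-138559696), had folds of 63.3 and 57.0 in Control and 68.8 and 70.1 in TRF2KO. Eif4ebp1, an inhibitor that sequesters eIF4E until it is phosphorylated (chr8:27260329-27276674), had 99.0 and 81.2 in Control and 103 and 103 in TRF2KO. The ATAC summits of both lay well downstream of the annotated start, at 853 to 1087 bp for Eif4e and 1061 to 1106 bp for Eif4ebp1. Eif5a, which acts in elongation and termination despite its name (chr11:69916714-69921958), had 149 and 119 in Control and 170 and 143 in TRF2KO. Eif6, which keeps the large ribosomal subunit from joining early (chr2:155819832-155826925), had 52.7 and 46.6 in Control and 54.7 and 49.9 in TRF2KO.

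No ATAC or TRF2 peak lay within 1 kb of the annotated start of Eif4g1, Eif4ebp3 and Eif4e1b in any library. Eif4g1, the main scaffold of the cap-binding complex (chr16:20668313-20692884), has 23 distinct annotated transcript starts, and a group of them lies 4410 to 5798 bp downstream of the first. At that group the ATAC folds were 59.4 and 55.3 in Control and 75.9 and 71.5 in TRF2KO, with summits 4442 to 4483 bp downstream. TRF2 peaks lay there too, with folds of 5.40 in replicate 1 and 5.64 in replicate 2.

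Eif4ebp3, the third eIF4E-binding protein (chr18:36664060-36665917), had weak ATAC peaks centred 2018 to 2141 bp downstream, past the 3′ end of the gene. Their folds were 6.21 and 7.02 in Control and 3.66 and 4.09 in TRF2KO. Eif4e1b, a form of eIF4E known from oocytes (chr13:54783998-54788459), had no ATAC peak inside the gene, and the nearest strong peak began downstream of its end. That peak reached folds of 130 and 101.3 in Control and 137 and 123 in TRF2KO, centred 5285 bp from the start of Eif4e1b, and TRF2 peaks there had folds of 6.91 and 10.7.

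Both TRF2 libraries had a peak within 1 kb of the start at 21 of 52 initiation factor genes, against 23.3% of all protein-coding genes. Another 16 genes had a peak in exactly 1 library and 15 had none, against 14.5% and 62.2% of all protein-coding genes. Of the 49 genes with an ATAC peak in all 4 libraries the same 21 were bound, against 37.5% of all such genes. No initiation factor gene had an IgG peak in its window, where 0.101% of all protein-coding genes had 1. Over the 21, TRF2 folds had medians of 6.61 in replicate 1 and 7.06 in replicate 2, against 6.49 and 6.86 over all 4843 genes bound in both. The pileups were small, from 7 to 27 fragments in replicate 1 and from 5 to 29 in replicate 2, so a gene with a peak in 1 library only may differ by a few fragments from one with both. At a stricter cutoff, a -log10 q of at least 5 in both libraries, 14 of the 21 kept their peaks and the share of all protein-coding genes fell from 23.3% to 13%, and Eif2ak1, Eif3a, Eif3c, Eif3d, Eif4b, Eif4ebp1 and Eif5b did not.

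**Figure D2:**
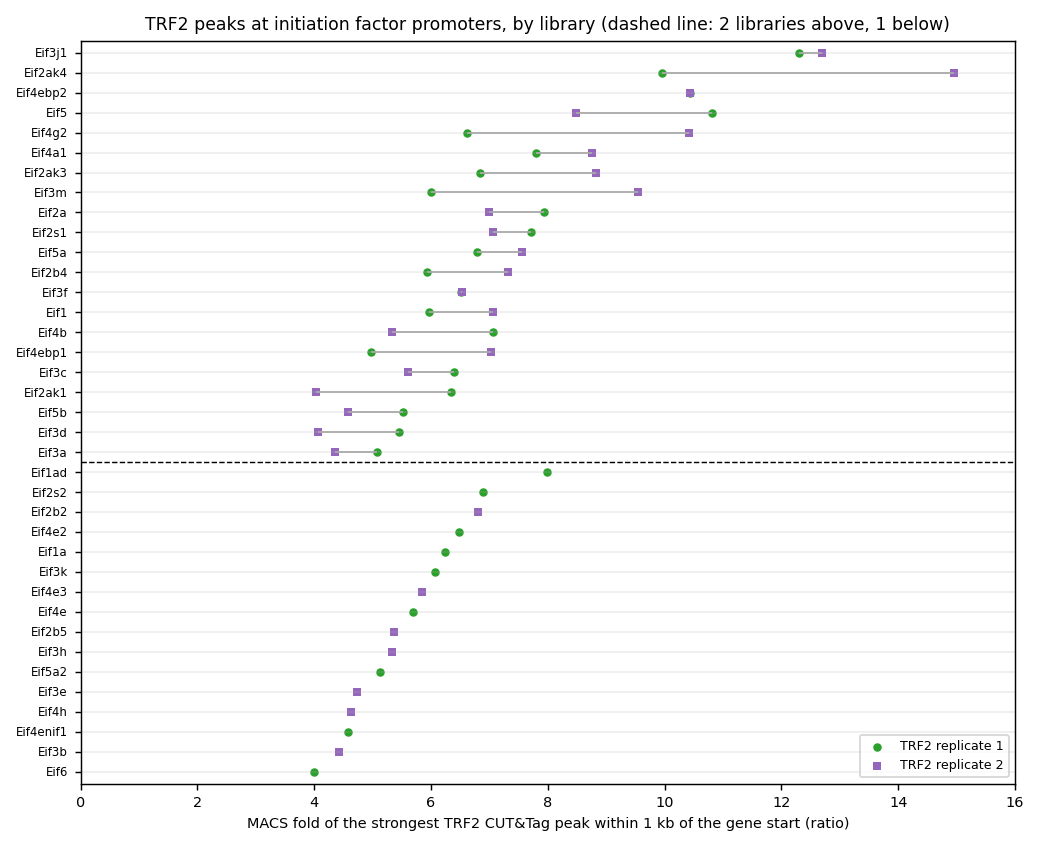
TRF2 fold enrichment (ratio) at the initiation factor genes with a TRF2 peak within 1 kb of the start in at least 1 library, ordered by mean fold. Circles are replicate 1 and squares replicate 2, a line joins both values of a gene, and the dashed line parts the 21 genes with a peak in both libraries from the 16 with a peak in 1. Eif3j1 and Eif2ak4 stand at the top with folds from 9.96 to 15.0.

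Eif3j1, a loosely attached eIF3 subunit (chr2:122028546-122056598), had TRF2 folds of 12.3 and 12.7 in replicates 1 and 2, with 27 fragments at the summit in each library. Its summits lay at -69 and -70 bp from the start. Eif2ak4 had 9.96 and 15.0, with 20 and 29 fragments. Eif4ebp2, an eIF4E inhibitor (chr10:61428491-61452661), had 10.4 in both libraries, and both summits lay at -313 bp. For these 3 genes the libraries placed TRF2 within 4 bp of the same position.

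Eif5 followed with folds of 10.8 and 8.48, Eif4g2 with 6.61 and 10.4, and Eif4a1 with 7.79 and 8.75. Among the 6, the TRF2 libraries differed most at Eif4g2, where the summits lay at 90 and -99 bp, and at Eif2ak4. Eif2ak3 had 6.84 and 8.82, Eif2s1 7.72 and 7.06, Eif5a 6.78 and 7.56, and Eif1, which guards start codon selection, 5.96 and 7.06. Eif4ebp1 had 4.98 in replicate 1 and 7.03 in replicate 2, but these were different places, since the summits lay 879 bp and 3 bp downstream of the start. Eif4e and Eif6 had a peak in replicate 1 only, with folds of 5.69 and 3.99.

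The summits of both TRF2 libraries lay within 150 bp of each other at 16 of the 21 genes, with a median separation of 95 bp. The farthest apart was Eif4ebp1, at 876 bp. The Eif5b summits, at 120 bp in replicate 1 and -693 bp in replicate 2, also lay in peaks that did not overlap. The count of 21 asked for a peak in each library, not for overlap of the peaks. At 13 of the 21, both TRF2 summits lay within 150 bp of the median ATAC summit of the promoter.

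**Figure D3:**
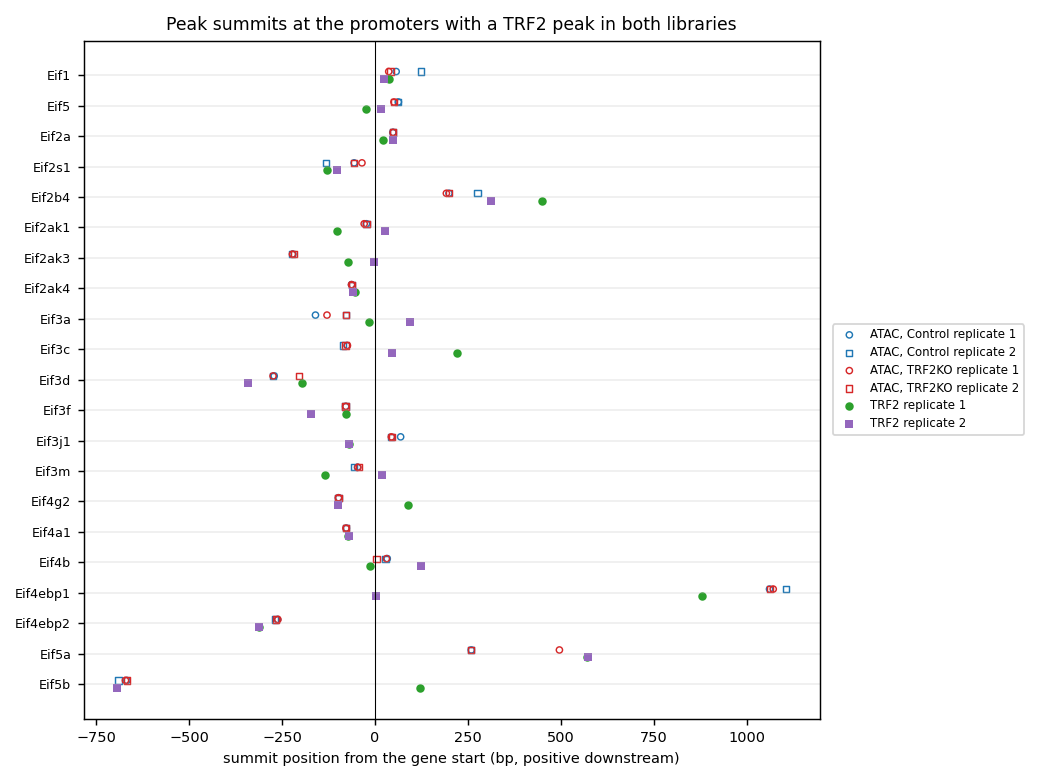
Position of peak summits from the gene start (bp, positive downstream) at the 21 initiation factor genes with a TRF2 peak in both libraries. Open symbols are the 4 ATAC libraries and filled symbols the 2 TRF2 libraries. The ATAC summits of a gene nearly coincide at most genes, and the TRF2 summits lie beside them at 13 of the 21.

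TRF2 peaks went with ATAC level across the genome, and the initiation factor genes lay more in the upper than in the lower part of that scale. All promoters with an ATAC peak in 4 libraries were cut into 5 equal groups by mean rank percentile. From the lowest to the highest group, 4.58%, 16.4%, 32.7%, 52.8% and 81.0% of all genes had TRF2 in both libraries. The initiation factor genes with TRF2 in both numbered 0 of 1, 2 of 12, 0 of 7, 5 of 14 and 14 of 15 in those groups. The exception in the highest group was Eif2b2, with a peak in replicate 2 only, and the 2 genes bound in the second group were Eif3c and Eif3m. No test was made of these counts. The part of ATAC level in the family's TRF2 count was not tested.

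**Figure D4:**
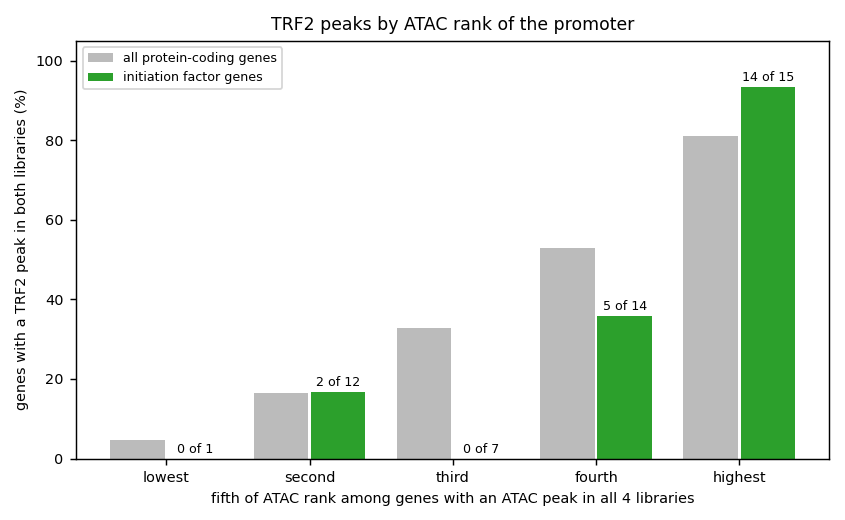
Share of genes (%) with a TRF2 peak in both libraries, by ATAC rank of the promoter in 5 equal groups, for all protein-coding genes (grey) and initiation factor genes (green). The numbers above the green bars are genes bound of genes in the group. The grey bars climb from 4.58% to 81.0%, and 14 of 15 initiation factor genes in the highest group were bound.

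The 6 eIF3 genes with TRF2 in both libraries were Eif3a, Eif3c, Eif3d, Eif3f, Eif3j1 and Eif3m. A peak in replicate 1 only was found at Eif1a, Eif1ad, Eif2s2, Eif3k, Eif4e, Eif4e2, Eif4enif1, Eif5a2 and Eif6, with folds from 3.99 to 7.98. A peak in replicate 2 only was found at Eif2b2, Eif2b5, Eif3b, Eif3e, Eif3h, Eif4e3 and Eif4h, with folds from 4.43 to 6.81. The open promoters without TRF2 were those of Eif1b, Eif2ak2, Eif2b1, Eif2b3, Eif2d, Eif3g, Eif3i, Eif3j2, Eif3l, Eif4a2, Eif4a3 and Eif4g3. Their median ATAC rank percentile was 84.5, against 98.0 for the 21 bound in both.

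By role, TRF2 in both libraries marked 3 of 4 eIF2 kinase genes (all but Eif2ak2), 6 of 14 eIF3 genes, 2 of 5 genes of start codon selection (Eif1 and Eif5) and 1 of 5 eIF2B genes (Eif2b4). It marked 2 of 4 genes of the eIF2 group (Eif2s1 and Eif2a), 2 of 5 helicase and cofactor genes (Eif4a1 and Eif4b), 1 of 7 cap-binding and scaffold genes (Eif4g2) and 2 of 4 eIF4E inhibitor and transporter genes. In the group of eIF5A, eIF5B and eIF6 it marked Eif5a and Eif5b, the latter at different places in replicates 1 and 2. The share was 23.3% over all protein-coding genes and 37.5% over those with an ATAC peak in all 4 libraries. Of the 3 bound kinase genes, Eif2ak1 lay in the fourth and Eif2ak3 and Eif2ak4 in the highest of the 5 ATAC groups. In those groups 52.8% and 81.0% of all genes were bound. Among the helicase genes, Eif4a1 was bound in both libraries, and neither Eif4a2 nor Eif4a3 (the latter a core protein of the exon junction complex) had a TRF2 peak in either. Eif1 was bound in both and Eif1b in neither, Eif3j1 in both and Eif3j2 in neither, and Eif5a in both while Eif5a2 had a peak in replicate 1 only. In each of these pairs the bound gene also had the higher ATAC fold in all 4 libraries.

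The 100 bases before the start of paralogs that differed in TRF2 are shown to compare their sequence, with capitals as above.
Eif1 (TRF2 in both), chr11:100319785-100319884, plus strand: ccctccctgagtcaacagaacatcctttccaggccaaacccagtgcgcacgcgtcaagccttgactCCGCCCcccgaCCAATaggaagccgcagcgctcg
Eif1b (TRF2 in neither), chr9:120492132-120492231, plus strand: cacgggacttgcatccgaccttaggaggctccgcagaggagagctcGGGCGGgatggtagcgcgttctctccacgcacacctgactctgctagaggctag
Eif5a (TRF2 in both), chr11:69921959-69922058, minus strand: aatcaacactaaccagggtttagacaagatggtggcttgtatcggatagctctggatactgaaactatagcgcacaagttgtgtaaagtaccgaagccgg
Eif5a2 (TRF2 in replicate 1 only), chr3:28781176-28781275, plus strand: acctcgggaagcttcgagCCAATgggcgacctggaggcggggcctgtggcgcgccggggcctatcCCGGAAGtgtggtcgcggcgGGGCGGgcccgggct
Eif4a2 (TRF2 in neither), chr16:23107344-23107443, plus strand: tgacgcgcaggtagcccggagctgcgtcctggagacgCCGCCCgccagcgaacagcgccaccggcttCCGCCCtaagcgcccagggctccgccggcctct

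GC content of these 100 bases was 63.0% for both Eif1 and Eif1b, and 45.0% for Eif5a against 76.0% for Eif5a2. Over 250 bp either side of the start, Eif1 had 66.9% and Eif1b 60.3%, Eif5a 47.9% and Eif5a2 73.7%, and Eif3j1 72.1% and Eif3j2 57.3%, so the order differed between pairs and, for Eif1, between windows. The Eif1b window lies within an exon of the antisense gene D830035M03Rik, and the others overlap no annotated exon. The TRF2 summits of Eif1 lay 37 and 24 bp downstream of its start, and those of Eif5a 570 and 574 bp downstream. The replicate 1 summit of Eif5a2 lay 218 bp downstream. The printed windows of these genes thus held none of their TRF2 summits.

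Within 250 bp of the gene start, 19 of 52 initiation factor genes held a G4 pattern, against 30.4% of all protein-coding genes, and 19 of the 49 with an ATAC peak in all 4 libraries did, against 40.7% of all such genes. Of genes bound by TRF2 in both libraries, 9 of the 21 initiation factor genes held the pattern (42.9%), close to the 41.1% of all 4843. It was present at 6 of the 16 with a peak in 1 library and at 4 of the 12 open promoters with none. A tandem TTAGGG repeat, searched on both strands, was within 1 kb at 0 of 52 gene starts and at 0.125% of all. GGGCGG was at 44 of the 52 starts (53.5% of all genes), CCGGAAG at 19 (14.8%), CACGTG at 10 (10.5%), CCAAT at 23 (48.2%), GCGCATGCG at 3 (2.52%), AAGATGGCG at 2 (2.87%) and TGACGTCA at 0 (2.73%). Among promoters with an ATAC peak in all 4 libraries, GGGCGG was at 42 of 49 initiation factor genes and at 75.1% of all, CCGGAAG at 19 and 21.5%, CACGTG at 10 and 13.2%, and CCAAT at 21 and 45.2%. By TRF2 class, CCGGAAG was at 6 of 21 genes bound in both, 9 of 16 bound in 1 and 4 of 12 bound in none. Median GC content of the 49 open promoters was 62.5%, equal to that of all 12888, and their median ratio of observed to expected CpG was 0.87 against 0.78.

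A coding gene on the other strand started within 1 kb upstream at 6 of the 52 genes (6.97% of all genes), and of promoters with an ATAC peak in all 4 libraries at 12.2% in the family and 10.9% in all, so that the same window covers both starts. The neighbours were Gtf2h3 for Eif2b1, Tmem234 for Eif3i, Map4k1 for Eif3k, Txndc9 for Eif5b, Tmed7 for Eif1a and Atp6v1d for Eif2s1. Peaks at these 6 cannot be assigned to one gene of the pair.

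TRF2KO and Control were compared at the 49 promoters to ask whether loss of TRF2 altered accessibility. Of all 12888 promoters tested by limma, 0.706% were lower and 0.279% higher in TRF2KO at an adjusted p below 0.05, and 0 of the 49 initiation factor promoters passed in either direction. At an unadjusted p below 0.05 the count was 2 of 49, against 1854 of 12888. With 2 libraries a group the test sees only large or very even differences, and an exact permutation test of 1 gene cannot go below p = 0.333. The log2 differences of the 49 had a median of 0.06, against 0.01 over all tested promoters. Without TRF2KO replicate 2 the median was 0.03 over the 49 and -0.0006 over all tested promoters. Of the 49 differences, 45 were smaller than 0.2 in size. The 95% intervals of the 49 reached from -0.45 at the lowest to 0.83 at the highest, at Eif2b5 and Eif2d.

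**Figure D5:**
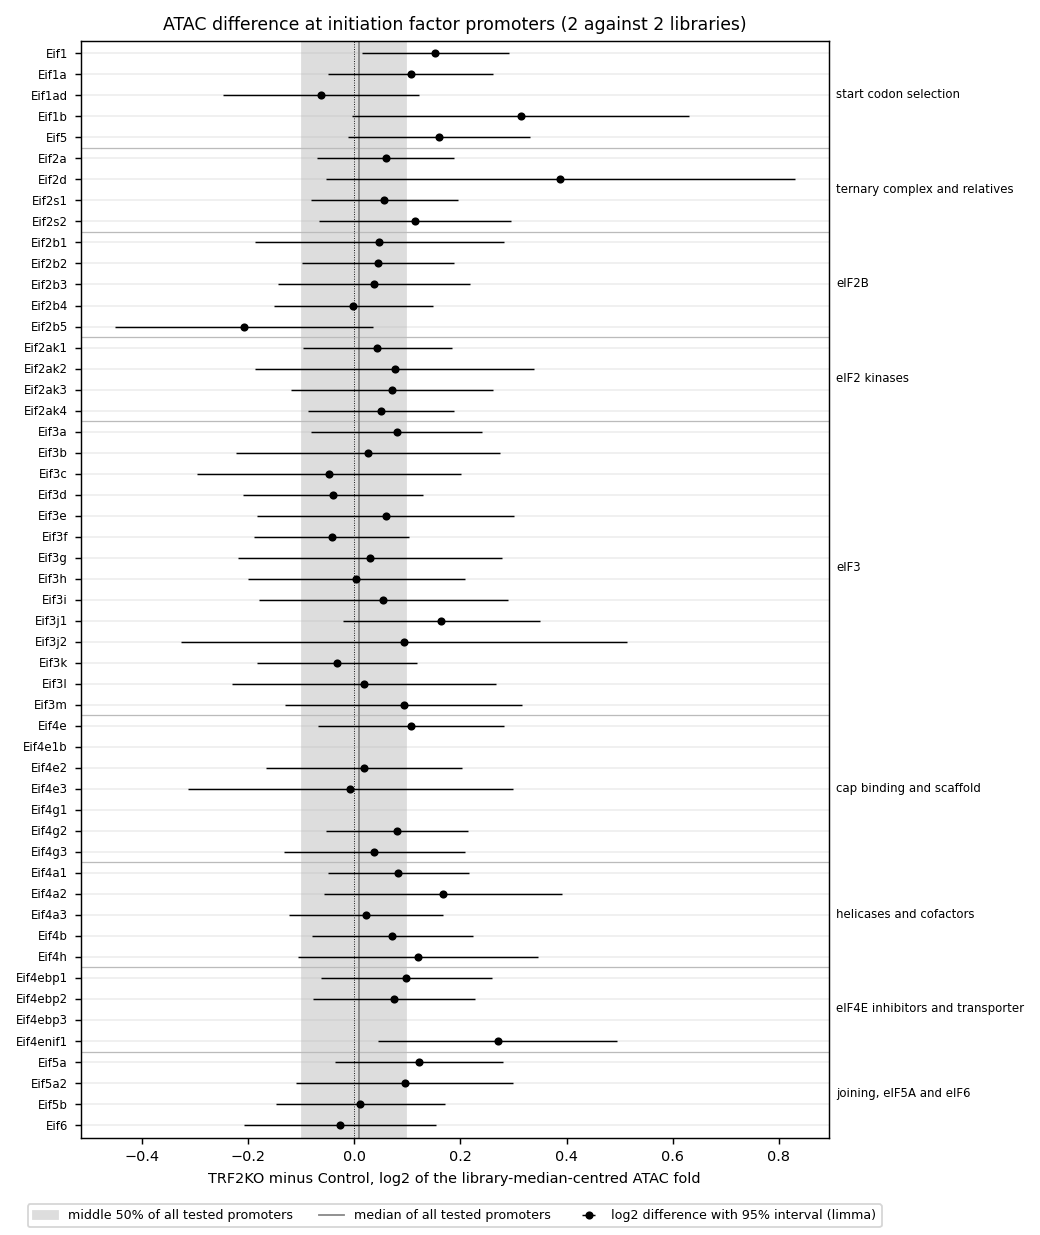
Log2 difference of centred ATAC fold, TRF2KO minus Control, for each initiation factor promoter (points) with its 95% interval from limma (lines), by role; each group had 2 libraries. The grey band holds the middle 50% of all 12888 tested promoters and the grey line their median. The 4 points beyond 0.2 in size are Eif2d, Eif1b, Eif4enif1 and Eif2b5, and no promoter passed the adjusted threshold.

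Eif4enif1, which carries eIF4E into the nucleus (chr11:3202392-3244588), had folds of 44.9 and 47.9 in Control and 59.2 and 60.8 in TRF2KO, and the groups did not overlap. Its log2 difference was 0.27 (SE 0.10, limma adjusted p = 0.261), and it was 0.14 (limma adjusted p = 0.684) without Control replicate 1 and 0.40 (limma adjusted p = 0.167) without Control replicate 2. Eif1 (chr11:100319885-100322096) had 120 and 113 in Control and 148 and 131 in TRF2KO, a difference of 0.15 (SE 0.06, limma adjusted p = 0.304). Eif1b (chr9:120492232-120495330), its paralog, had 15.9 and 14.2 in Control and 19.9 and 20.2 in TRF2KO, a difference of 0.31 (SE 0.15, limma adjusted p = 0.356). These 3 had the lowest p among promoters with a positive difference.

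Eif2b5, the catalytic subunit of eIF2B (chr16:20498817-20509323), had folds of 31.8 and 28.8 in Control and 29.3 and 27.0 in TRF2KO. On the centred scale both TRF2KO libraries lay below both Control libraries, with a log2 difference of -0.21 (SE 0.11, limma adjusted p = 0.427). Eif1ad, a relative of eIF1A (chr19:5366741-5371526), had 66.05 and 52.2 in Control and 62.2 and 58.6 in TRF2KO, and its difference of -0.06 (SE 0.08, limma adjusted p = 0.779) was positive without centring. Eif3f had a difference of -0.04 (SE 0.07, limma adjusted p = 0.814), also positive without centring. In both the groups overlapped.

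Eif2d, an initiator tRNA-binding relative outside the eIF2 complex, had the highest log2 difference of the 49, at 0.39 (SE 0.20, limma adjusted p = 0.409), with folds of 14.5 and 16.7 in Control and 18.5 and 25.9 in TRF2KO. It rested on TRF2KO replicate 2: without TRF2KO replicate 1 it was 0.69 (limma adjusted p = 0.0162), and without TRF2KO replicate 2 it was 0.08 (limma adjusted p = 0.927). Eif5 moved likewise, from 0.16 (SE 0.08, limma adjusted p = 0.386) to 0.29 (limma adjusted p = 0.0297) and 0.03 (limma adjusted p = 0.932). No other initiation factor promoter passed when a single library was left out.

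The log2 difference was 0.06 (SE 0.06) for Eif2s1, 0.07 (SE 0.09) for Eif2ak3, 0.11 (SE 0.08) for Eif4e, 0.10 (SE 0.07) for Eif4ebp1, 0.12 (SE 0.07) for Eif5a and -0.03 (SE 0.08) for Eif6. None passed the test, and of these 6 the centred groups did not overlap at Eif4e and Eif6. The 21 genes with TRF2 in both libraries had a median difference of 0.07, the 16 with TRF2 in 1 library 0.04 and the 12 open promoters without TRF2 0.05. At 44 of the 49 the difference was within 2 standard errors expected from the fragment pileups alone, as it was at 82.7% of all tested promoters.

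Both TRF2KO libraries lay above both Control libraries at 15 of the 49 promoters and below at 2, against 24% and 21.8% of all tested promoters. This split turned with the scale. By rank percentile in place of centred log2 fold, 1 lay above and 8 below, against 9.14% and 28.6% of all, and without centring 23 lay above and 0 below, against 35.2% and 7.32%. A positive log2 difference was seen at 40 of the 49 and at 52.5% of all promoters, and the 40 became 31 without Control replicate 2 and 48 without centring. The difference of all tested promoters also moved with their ATAC level, from a median of -0.10 in the lowest of the 5 groups by rank to 0.05 in the highest, where 15 of the 49 lay. The family's medians in the same groups, from lowest to highest, were 0.09 (1 gene), 0.04, 0.05, 0.03 and 0.07, each above that of all genes. The part of that trend in the family's median was not tested. Summed ATAC folds of the 9 open markers of other cells were 320 and 271 in Control and 192 and 248 in TRF2KO, and those of the 9 MuSC markers 623 and 554 against 562 and 580; their part in these differences was not tested.

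Other genes of translation and its control were counted for context, 26 of 27 listed genes being found by symbol. All 26, among them Eef2, Mtor and Atf4, had an ATAC peak in all 4 libraries, against 61.9% of all protein-coding genes. Their median rank percentile was 96.0, with a range from 21.9 (Pdcd4) to 99.9. TRF2 peaks in both libraries marked 15 of the 26, such as Atf4, Ddit3, Larp1, Pabpc1 and Mtor. The share was 37.5% of all genes with an ATAC peak in all 4 libraries. It was 52.8% in the group with rank percentiles from 91.9 to 96.6 and 81.0% in the group above it. The 26 were not divided by these groups, so their count has no comparison at like ATAC level. Between genotypes 0 of the 26 passed the test in either direction, against 0.706% lower and 0.279% higher of all promoters tested.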

How the data were processed

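The data were peak lists made by the authors, and no read counts were used. Per the study's methods, written for CUT&Tag and headed for both assays, reads were trimmed with Cutadapt, aligned to mm10 with Bowtie2, stripped of duplicates with Picard and filtered for unique proper pairs with SAMtools. The submitters' processing notes name Bowtie2 2.4.4 and 2.5.4, MACS3 3.0.0 and 3.0.2, Picard 3.1.1, SAMtools 1.10, SEACR 1.3 and DiffBind 3.10.1. A shift of ATAC reads and an input or IgG control in peak calling are not given in the sources used here. Each MACS peak has a fold ratio over background, deposited by the authors, and a -log10 p and -log10 q, also deposited by the authors. SEACR, GoPeaks and DiffBind consensus lists were used for positions only; the consensus lists were taken as pooled per genotype.

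A gene took its strongest MACS peak overlapping 1 kb either side of the GENCODE M21 gene start (build mm10). Summit pileups were solved from fold and p. ATAC log2 folds were centred on the library median over genes with a peak in all 4 libraries and fitted with limma 3.58.1 (R 4.3.3; lmFit, eBayes with trend), adjusted by Benjamini-Hochberg over 12888 genes at 0.05. The fit was tested on simulated data. Peak folds are each peak's own maximum, so they compare libraries less well than counts in fixed windows. Sequences were read from GRCm38.p6 with pysam 0.24.0, and Python 3.11.15 was used. The ATAC replicates are biological per the series description, which does not say this of CUT&Tag, and nothing ties same-numbered libraries of different groups.

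Genes given in full were those without an ATAC peak in all 4 libraries, the 6 with the highest mean TRF2 fold, any with an IgG peak, the 3 lowest p in each direction, and Eif2s1, Eif2ak3, Eif4e, Eif4ebp1, Eif4g1, Eif5a and Eif6. Other genes named serve as paralogs, extremes or members of a small count, and were picked after their values were seen. The members and lists were chosen with earlier results of these data known. Alternatives were other windows, peak callers, scalings, stricter thresholds, a replicate block and leaving out each library. The symbol Ddit3 stands for more than 1 gene record, of which the first was used.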

Additional observations from a re-analysis of the deposited data

How the results depend on the processing

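The ATAC count of 49 of 52 genes stayed between 42 (SEACR regions) and 50 under every alternative run, and the TRF2 count of 21 between 14 (stricter q) and 30 (replicate 1 alone). The counts of promoters passing limma stayed at 0 in both directions under every alternative but 1: leaving out single libraries gave 0 to 2 higher, and the 2, without TRF2KO replicate 1, were Eif2d (log2 difference 0.69, adjusted p = 0.0162) and Eif5 (0.29, adjusted p = 0.0297), where the lone TRF2KO library is assumed to vary like the others. With the replicate block 0 initiation factor promoters passed and the median difference stayed 0.06. Same-numbered libraries deviated with r = -0.08 across 12888 promoters. That value cannot decide whether they are paired, since counting noise in the pileups can hide shared variation. The block changed the calls over all promoters from 91 lower and 36 higher to 120 and 32. Over all promoters the calls ranged from 28 lower (nearest peak) to 238 (without TRF2KO replicate 2) and from 18 higher (without Control replicate 1) to 129 (without TRF2KO replicate 1). Leaving out single libraries put the median over members between 0.0323 (without TRF2KO replicate 2) and 0.0830 (without Control replicate 1). Without centring it was 0.16, beside a shift of 0.11 over all promoters, and Eif1ad (0.0398) and Eif3f (0.0603) changed sign; leaving out single libraries put Eif1ad between -0.148 (without Control replicate 2) and 0.0220 (without Control replicate 1). The count with both TRF2KO libraries below both Control libraries was 2, and was 8 by rank percentile, 4 after quantile normalization and 0 without centring. The count above was 15, and was 1 by rank percentile, 10 after quantile normalization and 23 without centring. G4 patterns within 1 kb either side were at 33 genes (56.4% of all genes), against 19 (30.4%). Leaving out single ATAC libraries put the median rank percentile between 94.2 and 94.5. The causes of these changes were not tested. CUT&Tag summits of under 30 fragments limit the TRF2 counts.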

Other observations

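Inside the genes and more than 1 kb from the start, overlapping TRF2 peaks in both libraries were found at 3 initiation factor genes. Eif2ak4 had one centred 55870 bp into the gene, with folds of 6.76 and 7.54 and no ATAC peak in any library within that part of the gene. Eif3b had one centred 20008 bp into the gene, with folds of 6.65 and 6.87. The third was Eif4g1, at its downstream transcript starts. No share over all protein-coding genes is given beside this count of 3, so it has no scale.

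The X-linked genes Eif2s3x, which encodes the gamma subunit of eIF2, and Eif1ax lie outside the rule. Eif2s3x had ATAC folds of 42.8 and 40.3 in Control and 42.5 and 35.6 in TRF2KO, and TRF2 folds of 6.66 and 5.004. Eif1ax had ATAC folds of 44.9 and 44.3 in Control and 60.8 and 54.7 in TRF2KO, and a TRF2 peak in replicate 2 only, with a fold of 7.76. These genes were not tested between genotypes.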
